A study of Homo sapiens with 6 samples.

Results

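Messenger RNA of 9 genes that write, maintain and remove cytosine methylation was followed with and without oxaliplatin in HCT116, a widely used line of human colorectal carcinoma cells with wild-type p53. The genes were taken by name from a deposited table of 27942 genes, as a fixed set of names chosen with earlier results of these data known, and are DNMT1, UHRF1, UHRF2, HELLS, DNMT3A, DNMT3B, TET1, TET2 and TET3. All 9 were found once and all 9 passed the filter on low counts, as did 13727 genes in all. Oxaliplatin is a platinum compound that forms crosslinks on DNA. The treated cells (OXA) received 0.5 µM oxaliplatin, the concentration the study calls its IC50, for 24 h, and the untreated cells (NT) were kept in culture alongside. Both groups were grown in RPMI medium with fetal serum and sequenced as 3 libraries of polyadenylated RNA each. They represent 1 cell line, 1 dose and 1 time point, and methylation of DNA itself was not among the measurements analysed here.

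In mammalian cells a methyl group on the cytosine of a CpG is lost passively when DNA is copied, unless the new strand is methylated again. DNMT1 carries out this maintenance step, UHRF1 recognises the half-methylated CpG and recruits DNMT1, and HELLS is a chromatin remodeler that opens nucleosomal DNA for both. DNMT3A and DNMT3B place methyl groups on unmethylated CpGs, and the TET dioxygenases oxidise 5-methylcytosine as the first step of its removal. Because maintenance is tied to replication, DNMT1, UHRF1 and HELLS are best known as genes of proliferating cells.

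HELLS was the member with the largest estimated change. It was lower in OXA, at 57.4% of its NT level (95% interval 48.2% to 68.3%), and was the only one of the 9 genes with an adjusted p under 0.05 by edgeR's quasi-likelihood test. DNMT1, UHRF1 and UHRF2 lay at 81.9%, 70.7% and 82.8% of NT without passing that threshold, and passed it when libraries of the same replicate number were treated as pairs. That paired fit called 10.9% of all genes tested lower, against 2.29% without pairing. DNMT3A, TET2 and TET3 had small positive estimates and no call in either fit. Without pairing, the call of HELLS was lost when OXA library 1 or OXA library 2 was left out.

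The windows before the annotated starts of HELLS and UHRF1 are shown because these genes had the lowest OXA levels relative to NT of the 9 and because their windows hold E2F sites, the motif through which E2F factors and their repressive partners act on S-phase genes. HELLS was selected by the rule for printing promoters and UHRF1 was added after its values and its sites were seen. The printed windows therefore cannot test a link between site and level. Each is the 250 bases upstream of a RefSeq start on the plus strand of GRCh38.p14, written 5′ to 3′. Capitals mark matches to an E2F site (TTTCCCGC, TTTCGCGC, TTTGCCGC or TTTGGCGC) or to a CCAAT box, on either strand.
HELLS, chr10:94545538-94545787: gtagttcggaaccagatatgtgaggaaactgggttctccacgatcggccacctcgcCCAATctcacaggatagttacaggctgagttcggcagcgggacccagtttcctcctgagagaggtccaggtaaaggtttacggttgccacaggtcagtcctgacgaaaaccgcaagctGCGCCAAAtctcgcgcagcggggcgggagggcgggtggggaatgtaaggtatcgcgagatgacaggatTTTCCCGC
UHRF1, chr19:4909251-4909500: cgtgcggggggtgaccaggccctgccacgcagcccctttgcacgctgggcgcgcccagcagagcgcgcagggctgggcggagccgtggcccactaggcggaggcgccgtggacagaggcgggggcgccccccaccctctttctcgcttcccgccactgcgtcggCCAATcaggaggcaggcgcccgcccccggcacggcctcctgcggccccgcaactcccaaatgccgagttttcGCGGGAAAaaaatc

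The HELLS window held 2 E2F sites, one ending at the last base before the start and one from position -76 to -69 on the minus strand, and 1 CCAAT box from -194 to -190. The UHRF1 window held 1 E2F site from -14 to -7 on the minus strand and 1 CCAAT box from -86 to -82. A second RefSeq start of UHRF1 also had 1 E2F site in its window and the last of its 3 starts had none. RefSeq lists 20 starts for the 9 genes, and an E2F site was found in 3 of these windows, which belong to HELLS and UHRF1, against 2.78% of the 34788 distinct windows of this length before all RefSeq starts. The motif CHR (TTTGAA or TTCGAA), which stood in 14.4% of all windows, was found among these genes only before 1 start of TET2. CpG dinucleotides numbered 18 in the HELLS window and 28 in the UHRF1 window, against a median of 11. A match describes letters only, and no binding was measured. The share over all windows was not matched for base content, and windows of the same gene are not independent. Whether sites and changes of level go together was not tested. Both printed windows also lie inside the GENCODE span of their gene, which starts at 94545329 for HELLS and at 4903080 for UHRF1.

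Library totals lay between 32979521 and 40967880 raw counts. The NT library 1 stood apart from the other NT libraries, with a chi-square per gene of 83.1 and 75.7 against them, where all other pairs within a group had 19.2 to 29.6. No pair was a repeat of another. The treatment left a clear mark of p53 activity. CDKN1A, which encodes the cell cycle inhibitor p21, rose 7.60-fold (log2 fold change 2.93, SE 0.15, adjusted p by edgeR 0.000445), and MDM2, the p53 antagonist, rose 4.66-fold (log2 fold change 2.22, SE 0.12, adjusted p by edgeR 0.000445). All 7 markers of colon epithelium were detected, of which KRT20 and VIL1 stayed under 100 raw counts in every library. Of 7 markers of blood, vessel and connective tissue cells, 4 had at most 9 raw counts in every library, and the summed level of the 7 was 327 to 492 raw counts in NT and 992 to 1099 in OXA. Most of that rise lay in ACTA2, an actin gene, at 189 to 245 raw counts in NT and 763 to 824 in OXA (adjusted p by edgeR 0.00178), while the blood cell markers PTPRC and CD3E reached at most 2. Its part in the results was not tested.

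Levels were compared between genes as normalized counts per kilobase of the canonical GENCODE transcript. In NT, DNMT1 was highest with 2095 ± 165 (mean ± SD, n = 3), followed by HELLS with 1219 ± 119 and UHRF1 with 1198 ± 270, whose libraries overlapped. Then came UHRF2 with 334 ± 32.3, DNMT3B with 248 ± 27.9, TET3 with 113 ± 9.17, TET2 with 90.7 ± 10.5, DNMT3A with 69.8 ± 8.35 and TET1 with 22.8 ± 1.67. Apart from HELLS and UHRF1, neighbours in this order did not overlap. DNMT1, HELLS and UHRF1 thus headed the list and the dioxygenases and DNMT3A ended it.

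**Figure D1:**
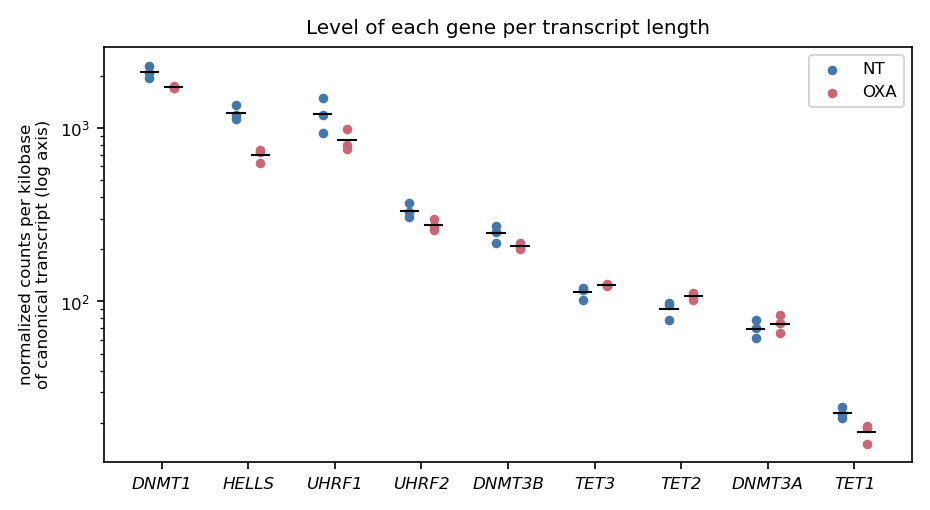
Each point is 1 library (NT blue, OXA red), the vertical log axis gives normalized counts per kilobase of canonical transcript and the bars are means of 3 libraries. The genes run from DNMT1, with an NT mean of 2095 per kilobase, down to TET1, with 22.8, and HELLS falls behind UHRF1 in OXA.

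In OXA the order was the same except that UHRF1, with 847 ± 122 normalized counts per kilobase, stood above HELLS, with 699 ± 59.6, without overlap between the libraries of the 2 genes. DNMT1 supplied 86.8% ± 0.843 (SD, n = 3) of the summed level of the 3 DNA methyltransferase genes in NT and 85.9% ± 0.255 in OXA. The share of DNMT3A went from 2.89% ± 0.155 to 3.73% ± 0.391. Among the TET genes, TET3 supplied 49.9% ± 4.09 in NT and 49.9% ± 1.32 in OXA, whereas the share of TET1 went from 10.1% ± 0.958 to 7.06% ± 0.807. Shares computed from 1 transcript length per gene depend on that length.

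The maintenance genes and UHRF2 were examined first. HELLS (ENSG00000119969, chromosome 10 of GRCh38 from 94545329 to 94613905, plus strand) had 4226, 3705 and 3506 normalized counts in NT libraries 1 to 3 and 2268, 1975 and 2321 in OXA libraries 1 to 3. Every OXA library was well below every NT library, and within same-numbered pairs OXA reached 53.7%, 53.3% and 66.2% of NT. The log2 fold change was -0.80 (SE 0.11, adjusted p by edgeR 0.00975), where 2.29% of the genes tested were called lower. The call was lost without OXA library 1, at an adjusted p by edgeR of 0.0622, and without OXA library 2, at 0.0525, with log2 fold changes of -0.83 and -0.73. Without OXA library 1, 0.136% of all genes tested were called lower. An unnamed long noncoding gene that is not in the table overlaps HELLS on the same strand over 33800 bases. In bulk RNA, fewer cells expressing a gene and less RNA per cell cannot be told apart.

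DNMT1 (ENSG00000130816, chromosome 19 from 10133342 to 10231286, minus strand), the maintenance methyltransferase, had 10267, 11989 and 10885 normalized counts in NT and 8932, 9198 and 9001 in OXA. The OXA libraries were close together and all lay under the NT libraries. Its log2 fold change was -0.29 (SE 0.088, adjusted p by edgeR 0.106), with an interval from -0.49 to -0.085. Blocking on the replicate number gave an adjusted p by edgeR of 0.0189 at the same log2 fold change, and without NT library 1 it was 0.0444 at -0.34. Leaving out any other single library gave no call, at an adjusted p by edgeR of 0.166 to 0.317. The gene overlaps S1PR2 on the same strand over 9854 bases, but S1PR2 had at most 475 raw counts in a library.

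UHRF1 (ENSG00000276043, chromosome 19 from 4903080 to 4962154, plus strand) varied more than any other member between untreated libraries, with 3652, 5757 and 4604 normalized counts in NT and 2946, 3842 and 3119 in OXA. NT library 1 lay below OXA library 2, so the groups overlapped, yet OXA was lower in each same-numbered pair, at 80.7%, 66.7% and 67.8% of NT. The log2 fold change was -0.50 (SE 0.18, adjusted p by edgeR 0.152). The block lowered the SE to 0.070 and the adjusted p by edgeR to 0.00907, at a log2 fold change of -0.49. Without NT library 1 the adjusted p by edgeR was 0.0215 at -0.65. Leaving out any other single library gave no call, and the log2 fold change was -0.35 without NT library 2 (adjusted p by edgeR 0.264) and -0.42 without OXA library 1 (adjusted p by edgeR 0.390).

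UHRF2 (ENSG00000147854, chromosome 9 from 6413151 to 6507054, plus strand), the paralog of UHRF1, does not replace it in maintenance. It had 1320, 1167 and 1093 normalized counts in NT and 1067, 974 and 926 in OXA, again without overlap. The log2 fold change was -0.27 (SE 0.11, adjusted p by edgeR 0.219), and with the block the adjusted p by edgeR was 0.0349. The ratio of UHRF1 to UHRF2 raw counts was 2.77, 4.93 and 4.21 in NT and 2.76, 3.95 and 3.37 in OXA. The groups overlapped and the mean log2 ratio differed by -0.22 (exact two-sided permutation test, p = 0.40, the smallest possible being 0.10), so an unequal change of the 2 paralogs was not shown.

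**Figure D2:**
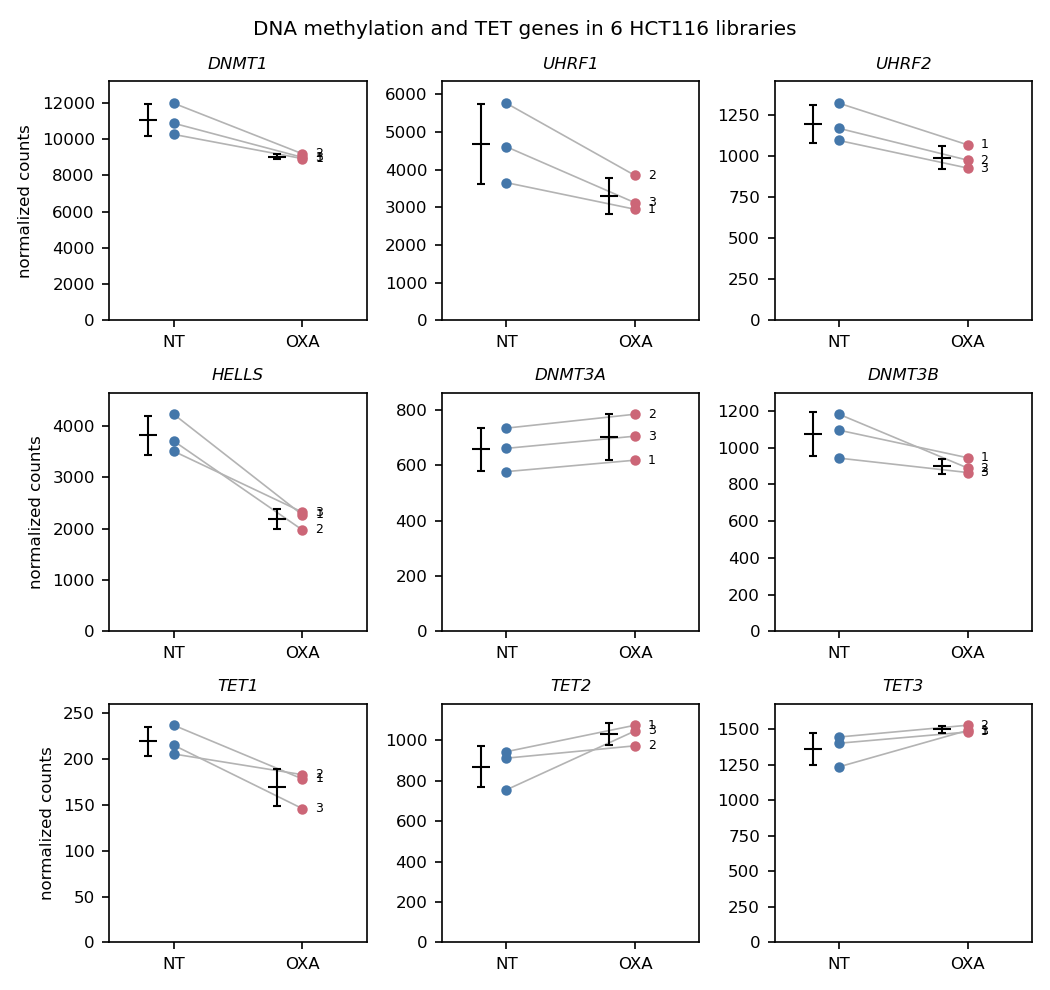
Each panel shows 1 gene, with normalized counts from 0 on the vertical axis, 1 point per library (NT blue, OXA red), grey lines joining libraries of the same replicate number (1 to 3) and black bars giving mean ± SD of 3 libraries. HELLS shows the widest gap between groups. Each pair slopes down for DNMT1, UHRF1, UHRF2, HELLS, DNMT3B and TET1 and up for DNMT3A, TET2 and TET3.

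The genes for de novo methylation had no call in either fit. DNMT3B (ENSG00000088305, chromosome 20 from 32762385 to 32809359, plus strand) had 1096, 1183 and 944 normalized counts in NT and 946, 890 and 865 in OXA. OXA library 1 lay just above NT library 3, and the estimate was -0.25 on the log2 scale (SE 0.12, adjusted p by edgeR 0.257). DNMT3A (ENSG00000119772, chromosome 2 from 25227855 to 25342590, minus strand) had 578, 735 and 662 normalized counts in NT and 619, 785 and 706 in OXA. The groups overlapped widely, although OXA was at 107% of NT in each of the 3 same-numbered pairs. The log2 fold change was 0.096 (SE 0.14, adjusted p by edgeR 0.746), with an interval from -0.23 to 0.42.

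Ratios within a library, which do not depend on how libraries are scaled, were used to compare these genes with each other. There were 17.8, 16.3 and 16.5 DNMT1 raw counts per DNMT3A raw count in NT and 14.4, 11.7 and 12.8 in OXA. All OXA ratios were lower, by a mean of -0.38 on the log2 scale (exact two-sided permutation test, p = 0.10, the smallest that 3 against 3 libraries allow). The ratio of DNMT3B to DNMT3A was 1.90, 1.61 and 1.43 in NT and 1.53, 1.13 and 1.23 in OXA. The groups overlapped, with a log2 difference of -0.35 (exact two-sided permutation test without pairing, p = 0.20), while the ratio was lower in OXA in each of the 3 same-numbered pairs (exact sign-flip permutation test, p = 0.25, the smallest that 3 pairs allow).

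DNMT3A was the member whose value depended most on how the table was normalized. The authors' normalized values carry a factor that differs between genes. Relative to the median gene of its library, this factor was 0.814, 0.897 and 0.930 for DNMT3A in NT and 1.35, 1.19 and 1.02 in OXA. The authors' normalized values were therefore 480, 655 and 618 in NT and 824, 928 and 716 in OXA, which do not overlap. With these factors in the edgeR fit, the log2 fold change of DNMT3A was 0.49 (SE 0.17, adjusted p by edgeR 0.161), still without a call. For UHRF1, DNMT3B and TET1 the factor stayed between 0.991 and 1.00 of the library median, and for HELLS between 0.946 and 1.06. It varied more for DNMT1, from 0.885 in OXA library 2 to 1.17 in NT library 1. For UHRF2 it went from 0.956 in OXA library 1 to 1.145 in OXA library 3. What produced the difference for DNMT3A was not tested.

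**Figure D3:**
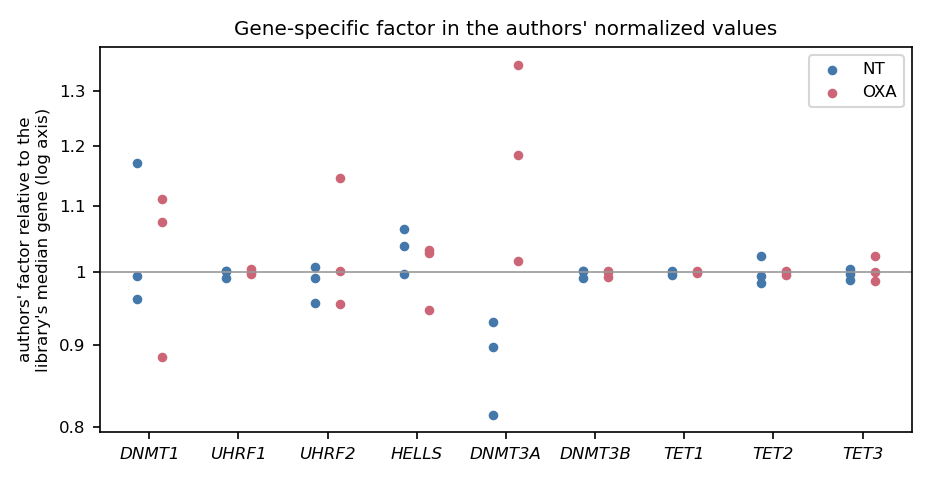
Each point is the factor by which the authors' normalization multiplied the raw count of a gene in 1 library (NT blue, OXA red), divided by the median factor of that library, on a log axis. DNMT3A is the only gene with all NT points below 1 and all OXA points above 1.

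The TET genes did not move as a group. TET1 (ENSG00000138336, chromosome 10 from 68560337 to 68694487, plus strand), the rarest of the 9, had 237, 206 and 215 normalized counts in NT and 179, 183 and 146 in OXA. Every OXA library was lower, with a log2 fold change of -0.38 (SE 0.16, adjusted p by edgeR 0.222). TET2 (ENSG00000168769, chromosome 4 from 105145875 to 105279816, plus strand) had 944, 911 and 755 normalized counts in NT and 1074, 973 and 1046 in OXA. Here every OXA library was higher, with a log2 fold change of 0.25 (SE 0.12, adjusted p by edgeR 0.283). TET3 (ENSG00000187605, chromosome 2 from 73984910 to 74108176, plus strand) had 1235, 1445 and 1401 in NT and 1491, 1528 and 1480 in OXA, all OXA libraries being higher by a small margin (log2 fold change 0.14, SE 0.098, adjusted p by edgeR 0.462). With the block none of these had an adjusted p under 0.05, the values being 0.0858, 0.106 and 0.185. The number of TET1 raw counts per TET2 raw count was 0.251, 0.226 and 0.285 in NT and 0.166, 0.188 and 0.140 in OXA. This ratio, chosen after the values were seen, differed by -0.63 on the log2 scale (exact two-sided permutation test, p = 0.10, the smallest possible).

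**Figure D4:**
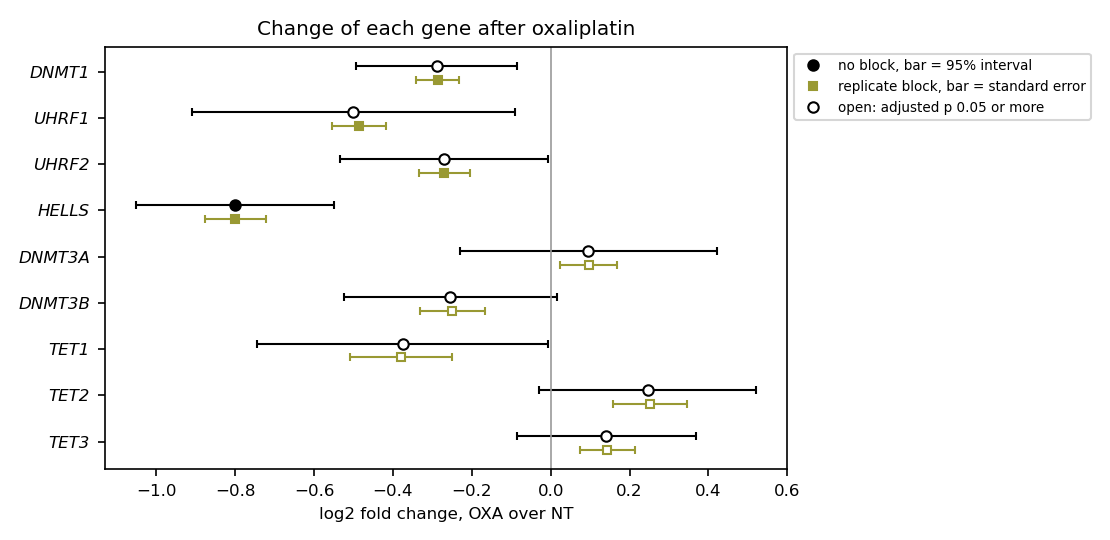
Circles are log2 fold changes of OXA over NT with 95% intervals from the fit without a block, squares those from the fit with the replicate block with standard errors, and filled symbols have an adjusted p under 0.05. HELLS is filled in both fits, and DNMT1, UHRF1 and UHRF2 only with the block.

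Counted over the 9 genes, 1 was called lower and 0 higher, where 2.29% and 2.78% of the genes tested were. An unadjusted p under 0.05 was reached by 5 of the 9 in the lower direction and 0 in the higher, against 11.1% and 10.7% of genes tested, and the exceptions were DNMT3A, DNMT3B, TET2 and TET3. The groups did not overlap for 4 lower and 2 higher members, against 14.4% and 14.5%. With the replicate block, 4 were lower (DNMT1, UHRF1, UHRF2 and HELLS) and 0 higher, against 10.9% and 12.1%. DESeq2 called HELLS alone, lower, where it called 4.81% of genes lower and 4.80% higher. Without NT library 1, 3 members were called lower (DNMT1, UHRF1 and HELLS), against 4.11% of genes tested. The median log2 fold change was -0.27 over the 9 and 0.023 over all genes tested.

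The other genes of the pathway were taken from a list of 41, of which 39 were tested. Their log2 fold changes centred on a median of -0.013, with 3 called lower (CDCA7, CDCA7L and IDH2) and 1 higher (GADD45A), where 2.29% and 2.78% of all genes tested were. The 10 maintenance partners held 2 of the 3 lower genes. CDCA7, the zinc finger protein that activates HELLS on nucleosomes, had 3430, 3261 and 3584 normalized counts in NT and 2111, 1799 and 2367 in OXA. It fell to 61.1% of NT (log2 fold change -0.71, SE 0.12, adjusted p by edgeR 0.0180), with no overlap. CDCA7L, its paralog, had 5372, 4956 and 5038 in NT and 3798, 3285 and 3688 in OXA (log2 fold change -0.51, SE 0.090, adjusted p by edgeR 0.0228). Both calls were lost without NT library 3, OXA library 1 or OXA library 2, at an adjusted p by edgeR of 0.0646, 0.101 and 0.0670 for CDCA7 and 0.0636, 0.0995 and 0.105 for CDCA7L, and that of CDCA7L also without OXA library 3, at 0.0763. HELLS, CDCA7 and ZBTB24 are, with DNMT3B, the genes mutated in the ICF immunodeficiency syndrome. ZBTB24, a transcription factor for CDCA7, was at 90.9% of NT and overlapped between groups (log2 fold change -0.14, SE 0.098, adjusted p by edgeR 0.475).

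PCNA, the replication clamp that tethers DNMT1, had 11016, 9541 and 9684 normalized counts in NT and 9929, 9074 and 10301 in OXA (log2 fold change -0.045, SE 0.096, adjusted p by edgeR 0.830). USP7, the deubiquitinase that protects UHRF1 and DNMT1, had a log2 fold change of 0.051 (SE 0.12, adjusted p by edgeR 0.857). PCLAF, a PCNA-binding protein that UHRF1 ubiquitinates, was lower without overlap, at 64.2% of NT, but was called only with the block (adjusted p by edgeR 0.0957 without the block and 0.00421 with it) and by DESeq2 (adjusted p 0.0142). It is named because its call differed between the fits.

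Of the 3 partners of de novo methylation, DNMT3L was not tested, with 2 raw counts in OXA library 3 and 0 elsewhere. NSD1 and SETD2, which methylate histone H3 at lysine 36, had log2 fold changes of 0.046 (SE 0.081, adjusted p by edgeR 0.797) and -0.21 (SE 0.10, adjusted p by edgeR 0.295). None of the 7 methyl-CpG reader genes, whose median estimate on the log2 scale was 0.10, was called by the fit without the block, and 0 of them reached an unadjusted p under 0.05. With the block 1 of the 7 was called higher, ZBTB38, at an adjusted p by edgeR of 0.0351, where 12.1% of all genes tested were.

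Among 8 genes that act after or beside TET oxidation, GADD45A rose. This stress-induced p53 target, proposed to aid demethylation, had 884, 759 and 758 normalized counts in NT and 1468, 1462 and 1329 in OXA, 1.77-fold higher (log2 fold change 0.83, SE 0.11, adjusted p by edgeR 0.00908). The call was lost without NT library 3, OXA library 1 or OXA library 2, at an adjusted p by edgeR of 0.0537, 0.0669 and 0.0535. TDG, the glycosylase that excises oxidised methylcytosine, was higher in every OXA library but not called (log2 fold change 0.39, SE 0.13, adjusted p by edgeR 0.144), and the block called it at 0.0186. APEX1, the endonuclease that acts after the glycosylase, was lower in every OXA library (log2 fold change -0.27, SE 0.081, adjusted p by edgeR 0.105) and was also called with the block, at 0.0230.

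Of 11 genes of methyl donor and 2-oxoglutarate metabolism, IDH2 fell. It encodes a mitochondrial isocitrate dehydrogenase, a source of the 2-oxoglutarate that TET enzymes use. It had 1655, 2203 and 1986 normalized counts in NT and 1244, 1317 and 1285 in OXA (log2 fold change -0.60, SE 0.12, adjusted p by edgeR 0.0355). When libraries were dropped singly, it passed only without NT library 1 (adjusted p by edgeR 0.00325), the others giving 0.0729, 0.0977, 0.161, 0.125 and 0.113 without NT library 2, NT library 3 and OXA libraries 1 to 3. IDH1, the cytosolic counterpart of IDH2, was lower in every OXA library, at 77.8% of NT (log2 fold change -0.36, SE 0.095, adjusted p by edgeR 0.0745), and was called with the block, at 0.0130, and by DESeq2, at an adjusted p of 0.0353. AHCYL1, a relative of AHCY, overlapped between groups (log2 fold change -0.18, SE 0.096, adjusted p by edgeR 0.328) and was called with the block, at 0.0496. MAT2A, which makes the methyl donor S-adenosylmethionine, had a log2 fold change of 0.19 (SE 0.10, adjusted p by edgeR 0.333), and AHCY, which clears the product S-adenosylhomocysteine, 0.23 (SE 0.10, adjusted p by edgeR 0.249). Of the remaining pair, TRDMT1, which methylates RNA, had a log2 fold change of -0.35 (SE 0.12, adjusted p by edgeR 0.139, and 0.0466 with the block), and DPPA3 had at most 1 raw count per library and was not tested.

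**Figure D5:**
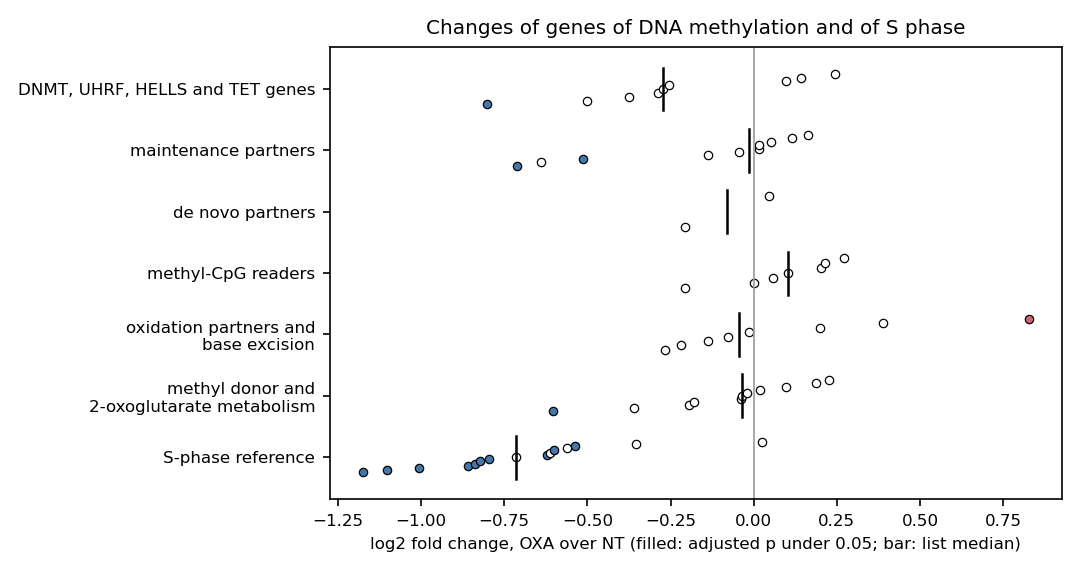
Each circle is the log2 fold change of 1 tested gene, OXA over NT, in 7 lists, filled blue where lower and red where higher with an adjusted p under 0.05, and vertical bars are list medians. The S-phase list centres near -0.71, the 9 DNMT, UHRF, HELLS and TET genes near -0.27 and the other methylation lists near 0.

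Genes of S phase served as a reference, since maintenance methylation accompanies replication. Of 15 such genes 10 were called lower and 0 higher, where 2.29% and 2.78% of all genes tested were, and the median on the log2 scale was -0.71. This list was chosen with earlier results of these data known. The study itself reported DNA replication among its down-regulated genes, so the count is a description and not a test. CDC6, which loads the replicative helicase, fell to 55.1% of NT (log2 fold change -0.86, SE 0.11, adjusted p by edgeR 0.00825), close to the estimate for HELLS. As for HELLS, its call was lost without OXA library 1 or OXA library 2, at an adjusted p by edgeR of 0.0566 and 0.0519. MCM2, a helicase subunit, was not called (log2 fold change -0.56, SE 0.17, adjusted p by edgeR 0.113), nor was RRM2, a subunit of ribonucleotide reductase (log2 fold change -0.35, SE 0.13, adjusted p by edgeR 0.167), and both were with the block, at 0.00822 and 0.0214. The same held for MCM5, another helicase subunit, at an adjusted p by edgeR of 0.192 without the block and 0.0244 with it, and for CDT1, a loading factor, at 0.209 and 0.0178. TYMS, also on this list, had a log2 fold change of 0.025 (SE 0.084). It was not called without the block or with it, at an adjusted p by edgeR of 0.898 and 0.775. DNMT1 had an interval of -0.49 to -0.085 and HELLS one of -1.05 to -0.55. The difference between members and S-phase genes was not tested.

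Across the 6 libraries, the genes whose log2 levels followed HELLS most closely among 12057 genes with at least 50 normalized counts were FAR2, C1orf21 and BRCA1, with Pearson's r of 0.9996, 0.999 and 0.998. FAR2 had 463, 444 and 434 normalized counts in NT and 370, 350 and 371 in OXA, a narrower range than HELLS. It was at 81.3% of NT and was not called (adjusted p by edgeR 0.185). C1orf21 fell to 61.9% of NT (adjusted p by edgeR 0.0210) and BRCA1, a DNA repair gene, to 54.3% (adjusted p by edgeR 0.00802). When libraries were dropped singly, the call of C1orf21 held in 1 of 6 fits and that of BRCA1 in 5 of 6. These 6 points share the difference between groups, so such an r is largely that difference.

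Genes that are typically kept silent by promoter methylation were read as a further measure. Of 32 such genes, 22 of the germline programme and 10 often methylated in colorectal cancer, 28 were below the filter on low counts, and 13 had 0 counts in all 6 libraries, where a count of 0 allows up to 3. Summed over the 28, raw counts were 27, 18 and 21 in NT and 24, 35 and 17 in OXA. The groups overlapped, and no gene of the 28 had more than 10 raw counts in a library. The filter in part fixed these low values. A gene that rose enough in all OXA libraries would have passed it and left the sum for the genes tested. The sum therefore cannot show whether silencing held. The 4 genes tested were MAGEA3, MAGEB2, TIMP3 and NDRG4. MAGEA3 had raw counts of 3987, 4271 and 5301 without oxaliplatin and of 4084, 4056 and 5635 with it (log2 fold change 0.054, SE 0.10, adjusted p by edgeR 0.805), but has a near-identical neighbour in MAGEA6, between which the authors' counting may have divided reads. MAGEB2 had raw counts of 7359, 6908 and 8846 in NT and of 7668, 7075 and 9786 in OXA. Its log2 fold change was 0.12 (SE 0.089, adjusted p by edgeR 0.499). MAGEA3 and MAGEB2 were thus expressed without oxaliplatin, and their values cannot show whether silencing held. NDRG4 and TIMP3 had 0.44 and -0.45 without a call, and passed with the block, at an adjusted p by edgeR of 0.0274 and 0.0398.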

How the data were processed

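Total RNA of HCT116 cells, 6 samples in all, was sequenced as stranded polyadenylated libraries (2 groups of 3). Per the study's methods, the authors mapped reads to GRCh38 with STAR 2.7.5b and used DESeq2. The submitters' processing notes list DESeq2 2.13, Trimmomatic 0.32 and RSEM 1.3.3, without roles. The annotation and strand setting of the counting are not given in the sources used here. The deposited table held a raw count per gene and library, used as deposited, and the authors' normalized signal, which is the raw count times a factor that differs between genes. The latter was used for an alternative and is printed for DNMT3A.

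Groups and replicate numbers came from the sample labels. Nothing says what a number stands for or that cultures were separate, so p-values measure the spread between these libraries. Raw counts were filtered with filterByExpr (minimum count 10, minimum total 15), normalized by TMM and tested with edgeR's quasi-likelihood test over 13727 genes, with Benjamini-Hochberg adjustment (R 4.3.3 with DESeq2 1.42.0, edgeR 4.0.16 and limma 3.58.1). Normalized counts are raw counts scaled to the mean effective library size. The SE was obtained as the log2 fold change over the root of F, and intervals use the fit's degrees of freedom. Counts carry counting error as a lower limit, since PCR copies cannot be told apart. The steps were tested on simulated counts. Positions and lengths came from GENCODE release 44 and promoter windows from RefSeq, both on GRCh38.

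Same-numbered libraries deviated together from their group means (correlations across genes of 0.48, 0.47 and 0.26, each over the limit of 0.1, against -0.41 to 0.076 for other pairs), so a fit blocked on that number is given beside members and listed pathway, S-phase and silenced genes whose call it changes. Alternatives were other normalization factors, 2 other filters, DESeq2, limma-voom, robust and newer edgeR fits, the authors' factors, the replicate block and the omission of single libraries. Members and lists were chosen with earlier results of these data known. Named are all 9 members, called pathway genes, lists of up to 5 genes, PCNA, USP7, CDCA7, TDG, MAT2A, AHCY, MCM2, CDC6, RRM2, CDKN1A and MDM2, and the 3 genes most like HELLS. Other genes named were chosen after their values were seen.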

Additional observations from a re-analysis of the deposited data

How the results depend on the processing

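Of the 9 members, every log2 fold change kept its sign under all 15 alternatives, but the small positive values moved with single libraries. DNMT3A went from 0.096 to 0.011 without NT library 1 or OXA library 2, TET2 from 0.25 to 0.12 without NT library 3 and TET3 from 0.14 to 0.076 without NT library 1, none with a call. With the authors' factors DNMT3A was 0.49. The call of HELLS held under all alternatives that used the 6 libraries. With the replicate block the number of members lower in OXA was 4 in place of 1, and pathway genes came to 8 lower and 3 higher in place of 3 and 1, while this fit called 10.9% of all genes tested lower and 12.1% higher in place of 2.29% and 2.78%. DESeq2 gave 5 pathway genes lower. Leaving out 1 library at a time gave 0 to 3 members lower, 0 members higher, 0 to 2 pathway genes higher and 0 to 3 pathway genes lower. The count of 3 members was reached without NT library 1, and 0 without OXA library 1 or OXA library 2. No member was called higher in any of these fits by edgeR, DESeq2 or limma-voom (0 in each). An unadjusted p under 0.05 in that direction was counted only in the reported edgeR fit without the block, where 0 members reached it. For the ratios, the smallest p that permutations of 6 libraries allow is 0.10 and that of 3 pairs 0.25, so these tests say nothing about stability. As values, with the authors' normalized values the DNMT1 to DNMT3A difference was -0.83 in place of -0.38 and DNMT3B to DNMT3A -0.76 in place of -0.35, and without 1 library at a time the UHRF1 to UHRF2 difference ranged from -0.46 to -0.039. Paired differences gave the same mean log2 ratios, at an exact sign-flip permutation p of 0.25 each. Outliers were not looked for in groups of 3. The depth of the series limits little here, since the rarest member, TET1, still had 164 to 236 raw counts.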
